A study of Rattus norvegicus with 2 samples.

Results

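Clusters of closely spaced RYBP peaks were examined in cardiomyocytes (CMs) of the newborn rat heart. Peaks separated by gaps under 12.5 kb were joined, and the peaks under 5 kb wide in joined regions of 20 or more peaks were taken as cluster peaks. This rule selected 3723 of the 41598 peaks in the list, 8.95% of them (95% exact binomial interval 8.68 to 9.23), in 132 regions. A further 139 peaks of 5 kb or more lay in the same regions and counted for the joining, which gives 3862 peaks in all. The CMs were wild type and untreated, and no strain is considered here. A peak list holds no expression, so the labelled cell type was not checked against markers. Of the 2 samples of the series, 1 is the RYBP ChIP and 1 the input, which is chromatin sequenced without the antibody and which served as the control of the peak calls. The depth behind the peaks is unknown here, and with 1 ChIP sample no value has a replicate error. The positions of the peaks chose the clusters, and each strength below comes from the same calls, so the values are descriptions without a test. Intervals describe counting error alone, as if each peak were independent of its neighbours.

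RYBP is a subunit of non-canonical Polycomb repressive complexes 1, in which RING1A or RING1B ubiquitinates histone H2A. Polycomb proteins are best known for silencing developmental genes, and Polycomb domains can extend over many kilobases. Super-enhancers (SEs) are stretches of neighbouring enhancers marked by dense H3K27ac, and they are commonly defined by joining enhancers over the same distance as used here. H3K27ac was not analysed here, and a cluster is therefore a run of RYBP peaks and not an SE. A genome sequence or annotation of the build of the peaks, Rnor_6.0, was not used here, so positions are given without genes or sequences.

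The size of the clusters was first described. The 132 regions were 0.697% of the 18934 joined regions of the list, single peaks included. The median number of peaks per region was 24 (95% interval of the median 23 to 27), with quartiles of 21.75 and 32. Regions of 20 to 24 peaks were the most common class with 67 regions, 22 regions held 25 to 29 peaks, 25 held 30 to 39, and 18 held 40 or more. The latter 18 regions contained 941 of the 3723 cluster peaks. The median length was 115 kb (110 to 127), with quartiles of 96.7 and 148 kb, a shortest region of 66.1 kb and a longest of 581 kb. Only 17 of the 132 regions exceeded 200 kb. Together the regions extended over 18.0 Mb, 0.649% of the 2768 Mb spanned by peaks on the chromosomes.

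Coverage by RYBP peaks was dense inside the clusters. In total, 31.4% of the region length was covered by peaks of every width, against 1.39% of the span outside the regions, a contrast that the joining rule itself favours. The median coverage of a region was 28.4% (26.7 to 31.4), with quartiles of 23.2% and 37.6%. The lowest was 15.5% and the highest 62.7%, and 6 regions were covered over 50% or more of their length. Cluster peaks alone covered 25.2% of a region at the median (23.3 to 26.9). The peaks of 5 kb or more supplied 19.3% of the covered length, although they were 139 of 3862 peaks.

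**Figure D1:**
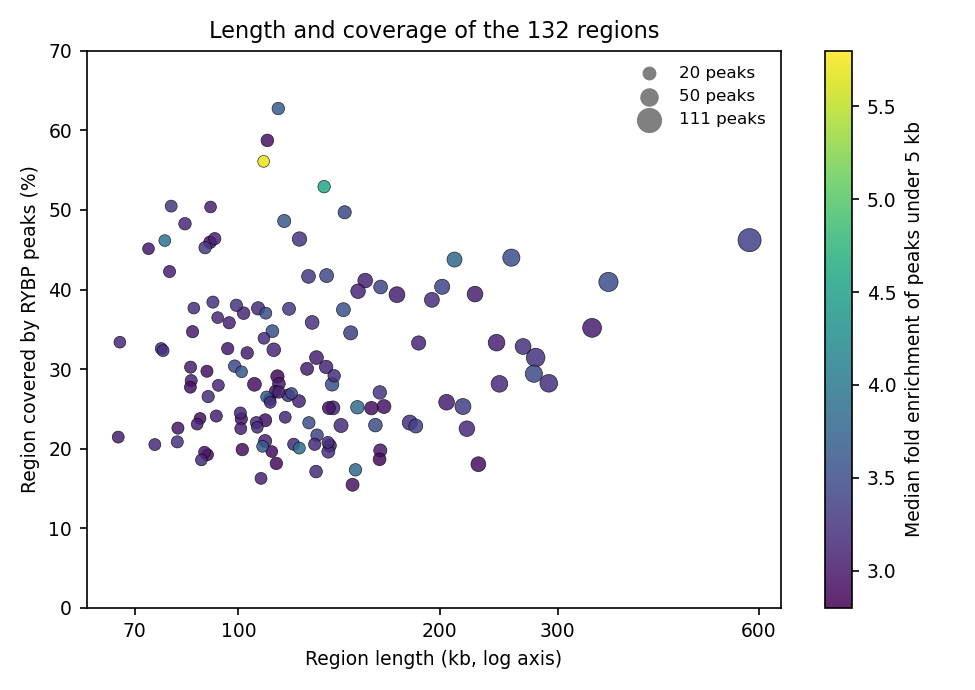
Length (x axis, kb, log axis) and coverage by peaks of every width (y axis, percent) of the 132 regions, 1 point each, with the point area growing with the number of peaks and the colour giving the median fold enrichment of the cluster peaks. Most regions lie between 66.1 and 200 kb, the longest reaches 581 kb, and coverage runs from 15.5% to 62.7% with little order by length.

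Neighbouring peaks within a cluster were separated by short gaps. The median of 3730 inner gaps was 2294 bp (2184 to 2412), with quartiles of 1138 and 4642 bp. The shortest inner gap was 597 bp, and 761 gaps (20.4%, 19.1 to 21.7) were under 1000 bp. Only 135 inner gaps (3.62%, 3.04 to 4.27) exceeded 10000 bp, which shows how few joins lay close to the joining distance. However, the longest gap of a region had a median of 10614 bp, so that a typical cluster held at least 1 stretch near that distance. The borders of the clusters were not deserts. The 264 bordering gaps had a median of 19205 bp (18176 to 20903), 181 of them were under 25 kb, and 7 reached 100 kb or more. At the next joined region beyond the border, 155 of 264 were regions of 3 or more peaks, 79 were isolated peaks and 24 were themselves clusters of 20 or more.

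The largest clusters were then taken singly. The region with the most peaks was found on chromosome 7 (Rnor_6.0 positions 11877248 to 12457976), with 100 cluster peaks and 11 wider ones. Fold enrichment, which is the ChIP signal divided by the local background, ranged from 2.42 to 10.8 among the cluster peaks. Of these, 24 had −log10 q of at least 10 (called strong below) and 19 had −log10 q under 2 (called weak). Here q is a p-value corrected for multiple testing, and its −log10 is averaged over the peak. Over the whole list, 25.3% of the peaks were strong and 28.8% were weak in this sense. The second region lay on the same chromosome at 11238284 to 11595596, with 69 cluster peaks of which 19 were strong and 11 weak. Its highest fold enrichment was 10.3, and its highest −log10 q was 63.3. The third region, on chromosome 5 at 169432221 to 169769977, differed from both. It held 67 cluster peaks of which 5 were strong and 28 weak, and its highest fold enrichment was 7.01.

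**Figure D2:**
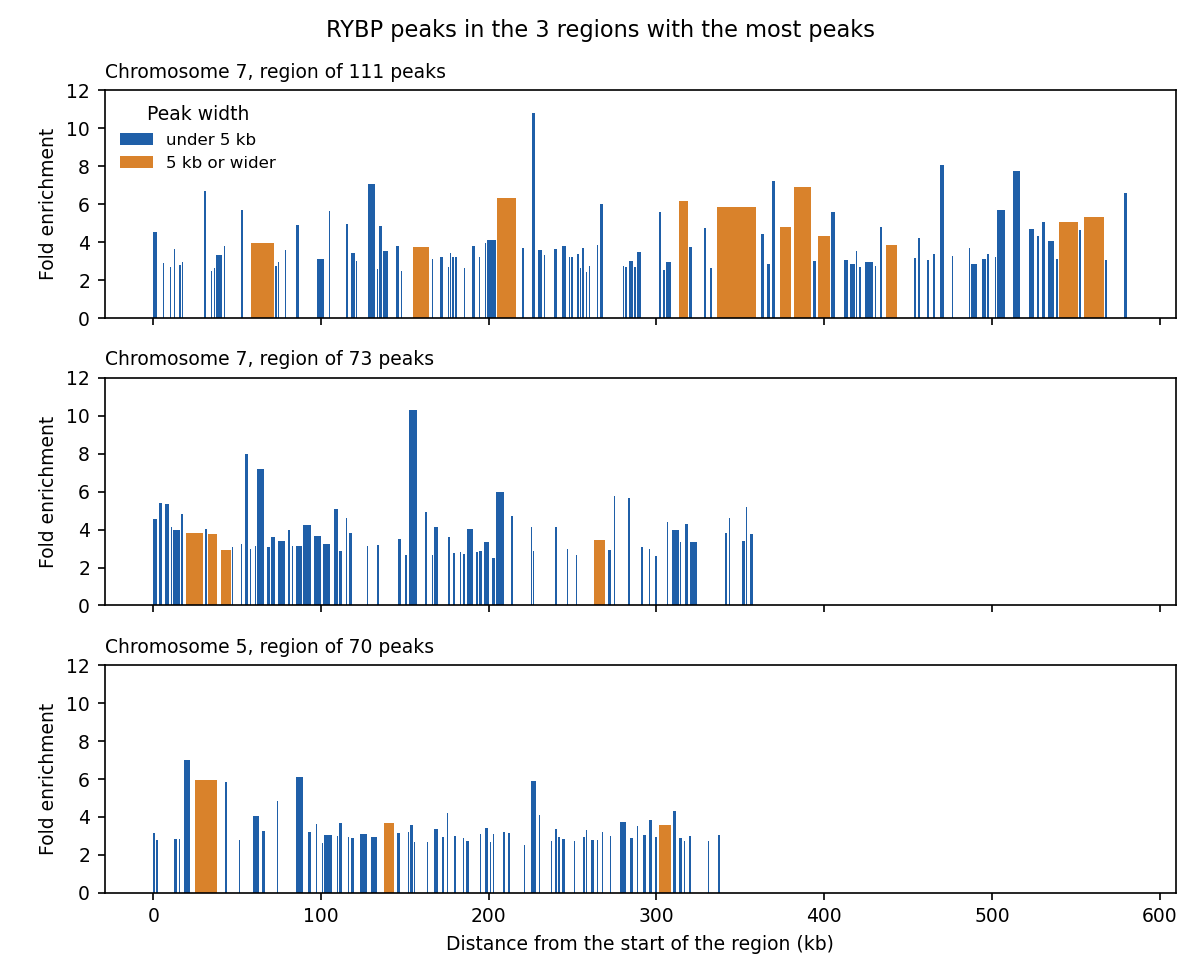
Fold enrichment (y axis) of every peak in the 3 regions with the most peaks against distance from the start of the region (x axis, kb), where the width of a bar is the width of the peak, blue bars are cluster peaks and orange bars are peaks of 5 kb or more. High and low bars are mixed along the first and second regions, while most bars of the third are low. The 11 orange bars of the first region lie mostly away from its ends.

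The next largest clusters varied in the same way. The region on chromosome 20 at 6553172 to 6831299 contained 67 cluster peaks, of which only 2 were strong and 26 were weak. The region on chromosome 10 at 103702842 to 103993820 contained 57 cluster peaks with 10 strong ones. On chromosome 1, the region at 80174665 to 80451077 had 53 cluster peaks with 17 strong ones, and a span of fold enrichment from 2.19 to 10.9. On chromosome 16, the region at 20268492 to 20524294 had 51 cluster peaks with 16 strong ones and 44.0% coverage. The region on chromosome 20 at 7714261 to 7959771 held 50 cluster peaks with 7 strong ones. In contrast, none of the 48 cluster peaks on chromosome 6 at 136676656 to 136919742 was strong, and the highest fold enrichment there was 4.41. The last of the 10 regions with the most peaks, on chromosome 8 at 116261211 to 116477758, held 47 cluster peaks with 9 strong ones and no peak of 5 kb or more. Regions with like numbers of peaks thus ranged from no strong peak to 17 of them.

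Extremes of coverage and strength were found in regions of fewer peaks. The most covered region, on chromosome 10 at 84103360 to 84218055, was 62.7% covered by 20 cluster peaks and 4 wider ones. The next, on chromosome 8 at 66232596 to 66343059, was 58.7% covered. It had no strong cluster peak, and 3 wide peaks supplied much of its coverage, since cluster peaks alone covered 28.0%. The third, on chromosome 3 at 61578214 to 61687271, was 56.1% covered and was also the strongest region of all, with a median fold enrichment of 5.69 over 16 cluster peaks, 10 of them strong. It contained the longest run of strong peaks of any width, 7 in a row. The second strongest region lay on chromosome 7 at 144520431 to 144654730, with a median of 4.59 over 20 cluster peaks, 9 of them strong. The gap before it, 246144 bp, was the widest gap bordering a cluster. The third lay on chromosome 16 at 19865202 to 19942811, with a median of 3.94 over 18 cluster peaks, 7 of them strong. All 3 regions had 20 to 24 peaks and 2 to 4 peaks of 5 kb or more. Of all 132 regions, 67 had 20 to 24 peaks and 68 held at least 1 peak of 5 kb or more.

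The least covered regions were free of wide peaks. On chromosome 5, the region at 155424094 to 155572192 was 15.5% covered, and 17 of its 27 cluster peaks were weak. Another on the same chromosome, at 155811377 to 155919455, was 16.3% covered. The region on chromosome 19 at 57043977 to 57174604 was 17.1% covered and had no strong peak. The lowest median fold enrichment, 2.88, was shared to 3 digits by a region on chromosome 12 at 36940141 to 37054499 and by one on chromosome 3 at 175191068 to 175280953. They held 29 and 21 cluster peaks. The next lowest, 2.89, was on chromosome 5 at 158661639 to 158824164, where 17 of 25 cluster peaks were weak. None of these 3 regions held a strong cluster peak.

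Despite these extremes, most clusters had similar medians. The median fold enrichment of a region was 3.16 at its own median (3.13 to 3.21), and its quartiles were 3.05 and 3.31. Of the sum of squares of log2 fold enrichment over the 3723 cluster peaks, 11.4% lay between regions, and the rest lay among peaks of the same region. The SD of log2 fold enrichment was 0.36 within a region at the median, whereas the SD of the region means was 0.14. Neighbouring cluster peaks were hardly more alike than this. Across 3464 pairs of neighbours, which share their region, the Spearman rho of fold enrichment was 0.06, and it was −0.01 after the median of the region was subtracted. High and low peaks followed each other with little order, as the map also shows for the largest and second largest regions.

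The strength of cluster peaks was compared with the rest of the list. Cluster peaks had a median fold enrichment of 3.17 (3.14 to 3.19; quartiles 2.86 and 3.72), against 3.34 (3.33 to 3.35) for the other 37358 peaks under 5 kb, a ratio of 0.948. Of the cluster peaks, 486 (13.1%, 11.99 to 14.2) were strong, against a background of 25.3% of all peaks. Only 21 (0.564%, 0.349 to 0.861) had −log10 q of at least 50, against a background of 1.67%. Weak peaks were 30.8% (29.3 to 32.3) of the cluster peaks, close to the background of 28.8%. The interval of the weak share lies just above that background, so weak peaks were slightly more frequent as well. The larger difference was in fewer peaks at the upper end, and neither difference was tested. Regions of 10 to 19 peaks were also much like the clusters, with a median of 3.13 (3.11 to 3.15) over 6171 peaks under 5 kb. Strong peaks were 13.1% (12.3 to 13.96) of those in regions of 10 to 19, and weak ones 34.8%. The ratio of cluster peaks to these was 1.01, on the other side of 1. Isolated peaks, with a median of 3.92, 41.0% strong peaks and 20.7% weak ones, stood highest.

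The gap in strength between cluster peaks and other peaks was larger among wider peaks. Cluster peaks were wider than other peaks under 5 kb, with medians of 902 and 710 bp. Under 500 bp the medians of fold enrichment were close, 3.07 (3.03 to 3.11) for 882 cluster peaks and 3.14 (3.13 to 3.15) for the others. From 500 to 1000 bp they were 2.97 (2.95 to 3.004) for 1172 cluster peaks, below those under 500 bp, and 3.16 (3.14 to 3.18) for the others, a ratio of 0.941. From 1000 to 2000 bp they were 3.26 (3.22 to 3.33) for 1033 cluster peaks and 4.22 (4.13 to 4.30) for the others, a ratio of 0.773. From 2000 to 3000 bp the ratio was 0.678, with medians of 3.49 and 5.14. From 3000 to 5000 bp it was 0.683, with medians of 3.85 (3.71 to 4.16) for 250 cluster peaks and 5.63 (5.44 to 5.90) for the others. Cluster peaks had the lower median in each of the 5 width classes. From 500 bp upwards the medians rose with width in both groups, and less so in the clusters. Peaks in regions of 10 to 19 followed the cluster peaks up to 3000 bp, with ratios of 0.984 to 1.002. In the widest class their median was 4.29 (3.91 to 4.54), and the ratio was 0.896. Across all cluster peaks, the Spearman rho of width and fold enrichment was 0.34 (n = 3723).

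**Figure D3:**
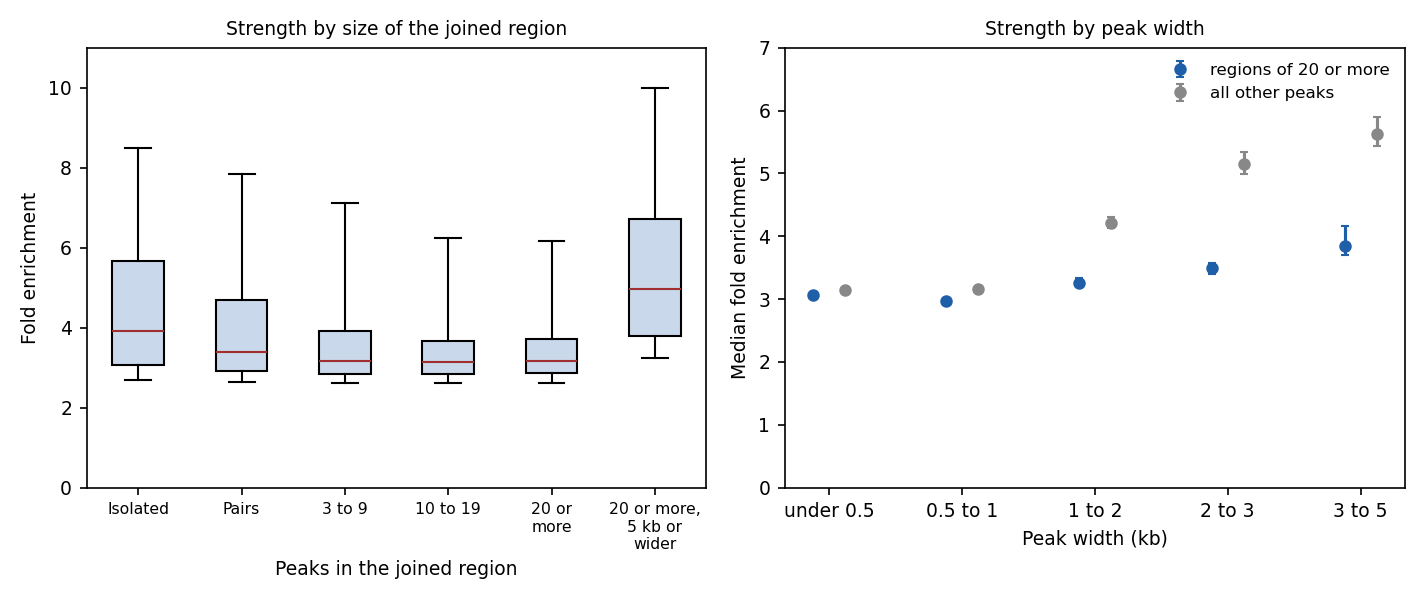
Left, fold enrichment (y axis) of peaks under 5 kb by the number of peaks in their joined region, with the peaks of 5 kb or more in regions of 20 or more at the far right (line, median; box, quartiles; whiskers, 5th and 95th percentiles). Right, median fold enrichment (y axis, bars are 95% intervals of the median) by peak width (x axis, kb) for the cluster peaks and all other peaks under 5 kb, where the 2 groups are close under 0.5 kb and lie at 3.85 and 5.63 from 3 to 5 kb.

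Peaks of 5 kb or more were frequent in the clusters. Of the 517 such peaks of the list, 139 (26.9%, 23.1 to 30.9) lay in the regions, compared with 9.06% (8.79 to 9.34) of the peaks under 5 kb. The joining uses the edges of these peaks too, so their share is not independent of the rule. At least 1 was present in 68 of 132 regions, and 18 regions held 3 or more. Their median fold enrichment was 4.96 (quartiles 3.79 and 6.71), against 6.67 (4.75 and 8.79) for the 378 wide peaks outside the regions. The 256 cluster peaks right next to a wide peak had a median of 3.26 (3.14 to 3.41), and 18.0% (13.5 to 23.2) of them were strong. For the 1886 cluster peaks of the same regions not next to a wide peak, the median was 3.18 (3.15 to 3.22). Of these, 13.7% (12.2 to 15.4) were strong, and both intervals overlap those of the peaks next to a wide peak. In regions without any wide peak the median was 3.14 (3.11 to 3.17), and 11.4% (9.92 to 13.1) of 1581 cluster peaks were strong. The median widths of these groups, in the order given, were 1080, 926.5 and 854 bp. An effect of a wide neighbour was not tested.

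Whether the core of a cluster was stronger than its edges was next evaluated. The edge was defined as the 2 first and the 2 last peaks of a region, and the core as the peaks between 25% and 75% of the way along its order. The 517 edge peaks had a median fold enrichment of 3.19 (3.12 to 3.28), and the 1831 core peaks had a median of 3.14 (3.11 to 3.17). The ends differed, with 3.27 (3.15 to 3.40) for edge peaks at the lower coordinate and 3.13 (3.05 to 3.23) at the higher. Only the former lay above the core. Within each region, the median of the core divided by that of the edge was 0.973 at the median of 132 regions (0.936 to 1.002), with quartiles of 0.847 and 1.06. The core exceeded the edge in 56 of 132 regions (42.4%, 33.9 to 51.3). Both intervals include equality. Under 5 of 11 other settings the interval of the ratio lay below 1, among them the single first and last peaks as the edge, given further below. The ratio was 0.906 (0.747 to 0.951) with joining within 5 kb, where only 10 regions were left, and 0.959 (0.944 to 0.982) with joining within 25 kb. It was 0.953 (0.935 to 0.975) with 15 or more peaks and 0.971 (0.927 to 0.998) without the width limit. In the same order, the core exceeded the edge in 0% (0 to 30.8), 38.1% (32.7 to 43.8), 37.6% (31.8 to 43.8) and 40.2% (31.7 to 49.0) of the regions. Hence no rise of fold enrichment toward the core was seen, and whether the core was lower than the edge depended on the setting.

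Strong peaks, in turn, were somewhat more frequent at the ends, a difference that was not tested. They were 16.2% (13.2 to 19.7) of the edge peaks and 11.4% (9.94 to 12.9) of the core peaks. By end, they were 17.8% (13.3 to 23.0) at the lower coordinate and 14.7% (10.6 to 19.7) at the higher. The latter interval overlaps that of the core. When the peaks of each region were divided in order into 10 bins, the share of strong peaks was 18.2% (14.4 to 22.6) in bin 1, 8.75% (5.98 to 12.3) in bin 5 and 14.9% (11.4 to 18.9) in bin 10. The median fold enrichment over these bins stayed between 3.09 and 3.26. The strongest cluster peak of a region was among the outer 25% on either side in 78 of 132 regions (59.1%, 50.2 to 67.6). These outer parts held 52.4% of the cluster peaks, a share inside that interval. The strongest one was the very first or last peak in 17 regions. The single first and last peaks gave a lower ratio of core to edge, 0.924, with an interval below 1 (0.877 to 0.967). Peaks of 5 kb or more were 4.04% (3.20 to 5.02) of the core and 2.08% (1.04 to 3.70) of the edge, intervals that overlap.

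**Figure D4:**
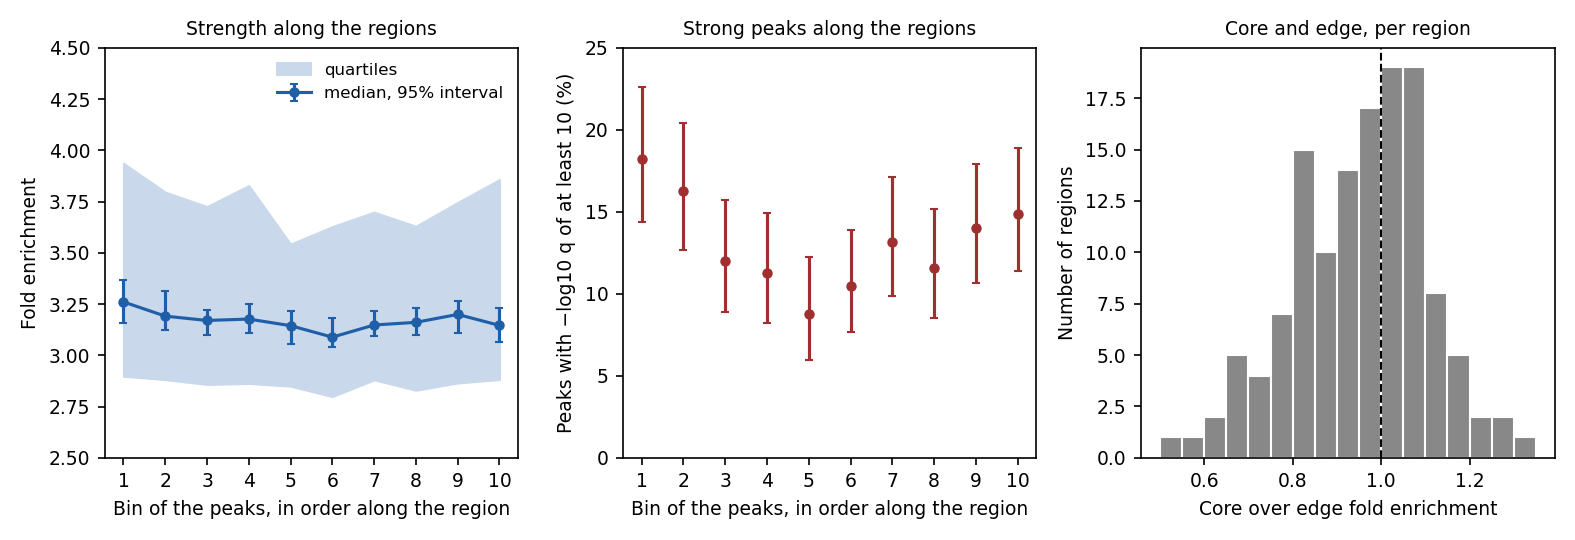
Left, fold enrichment (y axis; points, median with 95% interval; shading, quartiles) and middle, share of cluster peaks with −log10 q of at least 10 (y axis, percent, with 95% exact binomial intervals), both by bin of the peaks in order along the region (x axis, 10 bins). Right, number of regions (y axis) by the ratio of core to edge median fold enrichment (x axis), with equality as a dashed line; 56 of 132 regions lie above it, and the share of strong peaks falls from 18.2% in bin 1 to 8.75% in bin 5.

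The 5 cluster peaks with the highest −log10 q were located at various places in their regions, none of them among the 2 first or 2 last peaks. The most significant one, on chromosome 5 at 139207207 to 139211476, was peak 27 of 31 in its region and reached a fold enrichment of 17.1 (−log10 q 113). The next, on chromosome 3 at 61588715 to 61592136, was peak 3 of 20 in the strongest region described above, and its fold enrichment was 16.5 (−log10 q 88.6). On chromosome 10, peak 15 of 24 at 13853561 to 13855919 had a fold enrichment of 11.02 (−log10 q 76.02). On chromosome 7, peak 3 of 20 at 142686967 to 142691049 had one of 14.9 (−log10 q 74.3). The fifth was a narrower peak of 803 bp on chromosome 16 at 20103467 to 20104269, peak 27 of 40 in its region (fold enrichment 13.1, −log10 q 64.7). These 5 peaks lay in 5 different regions on 5 chromosomes.

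The distribution over chromosomes was uneven. Clusters were present on 17 of 21 chromosomes, and chromosomes 1, 3, 7 and 10 carried 15 each. Chromosome 5 carried 14, and these 5 chromosomes together held 55.6% of the cluster peaks, against 44.8% of all peaks. Chromosome 19 carried the most for its span, with 5.41 cluster peaks per Mb (4.85 to 6.03; 12 regions), followed by chromosome 20 with 5.04 (4.47 to 5.66; 8 regions). Chromosome 12 followed with 3.94 (3.42 to 4.51; 7 regions). Among chromosomes with a cluster, chromosome 2 was the sparsest with 0.154 (0.111 to 0.209; 2 regions), which gives a ratio of 35.2 between the densest and the sparsest autosome. The intervals assume independent peaks, and the 41 cluster peaks of chromosome 2 came from only 2 regions.

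The share of a chromosome's peaks that lay in clusters gave another order. It was 19.9% (18.0 to 21.9) on chromosome 19, 17.6% (16.2 to 19.04) on chromosome 7 and 17.5% (15.7 to 19.5) on chromosome 20. Chromosome 12 carried the most peaks of every kind per Mb, 44.2, yet 8.91% (7.78 to 10.1) of them were cluster peaks, close to the 8.95% of the whole list. Chromosome 16 showed the opposite, with 13.0 peaks per Mb and a cluster share of 14.3% (12.3 to 16.4). No cluster was found on chromosomes 13, 15, 18 and X, where a count of 0, taken as up to 3 counts, allows a share of up to 0.255%, 0.358%, 0.337% and 0.274%. These limits treat peaks as independent, whereas each of the 132 regions brought at least 16 cluster peaks. The largest joined regions there held 17, 17, 16 and 15 peaks, just under the limit of 20. 

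**Figure D5:**
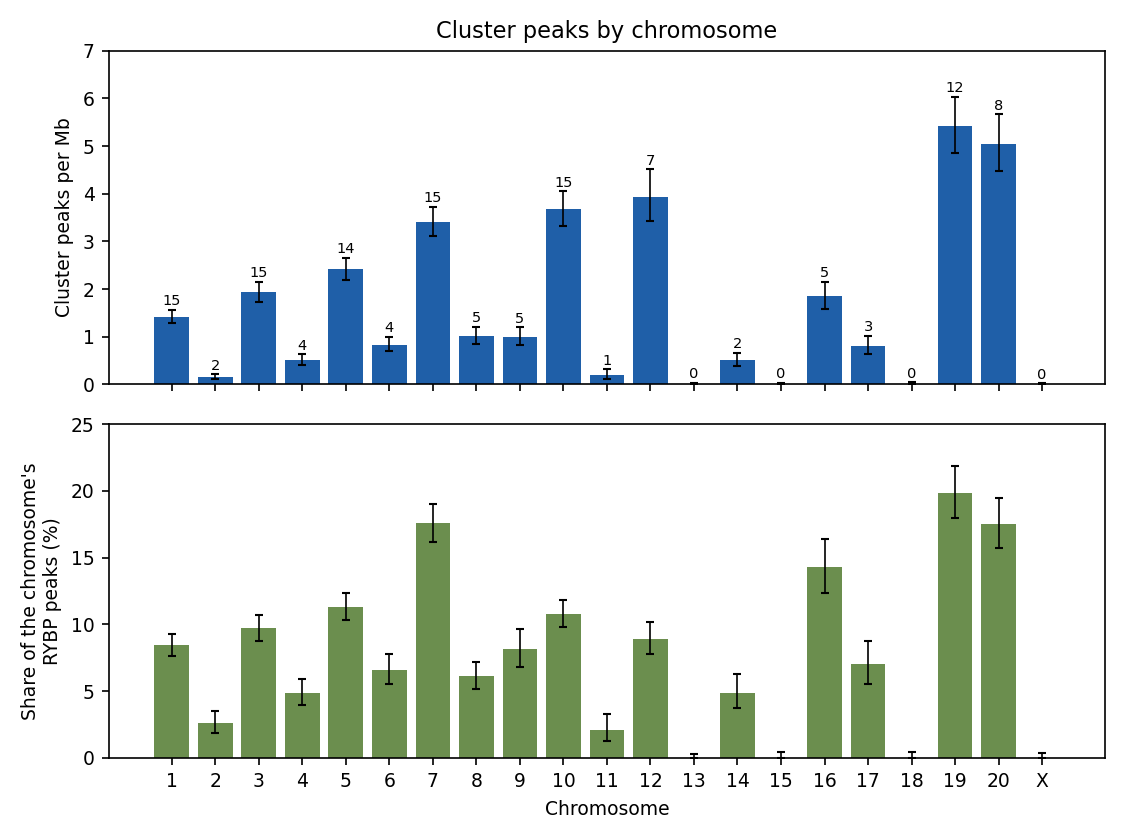
Cluster peaks per Mb of span (upper y axis, with 95% exact Poisson intervals and the number of regions above each bar) and their share of all peaks of the chromosome (lower y axis, percent, with 95% exact binomial intervals) by chromosome (x axis). Chromosomes 19 and 20 are the highest by density, at 5.41 and 5.04 per Mb, while chromosomes 19, 7 and 20 have the largest shares.

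Cluster peaks were weaker than the other peaks under 5 kb of the same chromosome on 15 of the 17 chromosomes. The ratio of medians was lowest on chromosome 2, at 0.861 with only 41 cluster peaks, and exceeded 1 on chromosome 7 (1.01) and chromosome 16 (1.02). Over the 12 chromosomes with 100 or more cluster peaks it ran from 0.910 to 1.02. On these 2 chromosomes the medians of the cluster peaks were 3.36 and 3.42. Chromosome 12 had one of the lowest medians of cluster peaks, 2.98, and chromosome 14 the lowest, 2.97, over 58 cluster peaks in 2 regions.

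Many clusters had another cluster nearby. The joining rule itself favours this, since it splits a stretch of peaks at each gap of 12.5 kb or more. In 11 pairs, neighbouring clusters were less than 25 kb apart. The nearest other cluster lay at a median distance of 348 kb (quartiles 76.4 and 1594 kb, n = 131 regions). Another cluster was found within 100 kb of 43 of the 132 regions, within 500 kb of 73 and within 1 Mb of 91. When clusters less than 500 kb apart were taken as one group, 24 groups of 2 or more regions and 59 single regions resulted. The group with the most regions lay on chromosome 19 at 53724021 to 55720696, where 9 regions of 20 to 46 peaks held 256 cluster peaks, 77.3% of those on the chromosome. The second lay on chromosome 7 at 10984796 to 12924791, where 7 regions, among them the 2 largest of all, held 306 cluster peaks. These groups were of like length, 1.997 and 1.94 Mb, but not of like strength. Strong peaks were 6.25% of the cluster peaks in the group on chromosome 19 and 21.9% in that on chromosome 7. On chromosome 16, a group of 4 regions at 19865202 to 20895493 held 147 of the 168 cluster peaks of the chromosome, and 29.9% of them were strong. On chromosome 5, a group of 4 regions at 155225803 to 156142019 had 4.17% strong peaks among 96. The regions of the group on chromosome 16 had medians of fold enrichment of 3.23 to 3.94. Those of the group on chromosome 5 had 2.97 to 3.17, without overlap. Both groups were picked after their values were seen. Another group of 4 regions, on chromosome 20 at 4325455 to 5762971, lay between them with 13.9% strong peaks among 115. Its region medians, 3.09 to 3.42, overlapped those of both groups. Over all 132 regions the quartiles of the median were 3.05 and 3.31.

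The limits of the rule were checked at their borders. The 19 regions of exactly 20 peaks had a median length of 93.1 kb, and the 16 regions of 19 peaks had one of 89.4 kb. Their median coverage was 26.9% in both, and the medians of the region medians of fold enrichment were 3.17 and 3.18. The regions just inside and just outside the limit were thus alike in these values. At the width limit, the widest cluster peaks measured 4996, 4928 and 4903 bp with fold enrichments of 7.79, 4.09 and 5.50. The narrowest peaks left out measured 5010, 5015 and 5031 bp with fold enrichments of 5.02, 6.20 and 3.70.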

How the data were processed

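RYBP ChIP-seq and input of newborn rat CMs (1 sample each) were used. According to the study's methods, the authors trimmed reads with Trim Galore, aligned them with Bowtie2 to Rnor_6.0, removed duplicates with Samtools and used MACS2 with the input as control. They state a false discovery rate below 0.01 for the peaks, which is −log10 q above 2. In this list 28.8% of the peaks had −log10 q under 2, and the reason was not examined. The methods also name replicates for each group and the merging of alignments of replicates, but the labels give 1 RYBP sample, so whether this list pools libraries is not known. The deposited broad peak list gives a fold enrichment (linear ratio), a −log10 p-value, a −log10 q-value and a deposited integer score, which was not used. MACS2 averages these over a broad region, which lowers the values of wide peaks with a narrow summit.

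Peaks were sorted, joined and described with pandas 2.3.3, numpy 2.4.6 and scipy 1.17.1 in Python 3.11.15, and drawn with matplotlib 3.10.9. The joining and the core and edge steps were tested on simulated data. Intervals of medians are binomial order-statistic intervals at 95%. Positions count from 1. Regions and peaks were named by rank of peak number, length, coverage, fold enrichment, −log10 q and width. The runs of strong peaks, the groups of clusters, the width classes and the neighbours of wide peaks were chosen after their values were seen. The members, lists and comparisons were chosen with earlier results of these data known. The gene table at hand is of another build and was not used, and the input's own signal was not analysed here.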

Additional observations from a re-analysis of the deposited data

How the results depend on the processing

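The cluster share of the peaks (8.95%) and the other values followed the joining and the peaks kept. Joining within 5 kb left 10 regions with 0.551% of the peaks, a median length of 91.8 kb, coverage of 52.6%, a gap of 1432 bp, 11.8% strong peaks, a fold ratio to other peaks of 0.957, a core to edge ratio of 0.906 with the core above the edge in 0% of the regions, and a chromosome density ratio of 3.26. Joining within 25 kb gave 312 regions with 26.9% of the peaks, 197 kb, 18.1% coverage, a gap of 3290 bp, a fold ratio of 0.919 and a density ratio of 53.7. With −log10 q of at least 2 before joining, the limit that the study states, 27 regions held 2.47% of the peaks kept. Their median length was 134 kb, with 35.5% coverage, a gap of 2519 bp and 24.97% strong peaks. The fold ratio was then 0.935, the core to edge ratio 0.924 and the density ratio 19.4. This setting left out 11969 peaks but kept all 10528 strong peaks of the list. Its background of strong peaks is thus above the 25.3% of the whole list. Merging peaks within 1 kb gave 74 regions with 5.10% of the peaks left after merging, 143 kb, 31.4% coverage, a gap of 3014 bp and a density ratio of 14.7.

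With 15 or more peaks, 263 regions held 14.1% of the peaks, with 91.7 kb, 26.3% coverage, a gap of 2462 bp, a fold ratio of 0.939 and a density ratio of 50.5. With 30 or more, 43 regions held 4.19%, with 173 kb, 32.4% coverage, 14.6% strong peaks, a fold ratio of 0.962, a core to edge ratio of 0.902 and a density ratio of 22.4. Without the width limit the share was 9.28% and strong peaks 14.5%. Coverage was 25.2% from cluster peaks alone. The core to edge ratio was 0.924 for the single first and last peaks, and it stayed under 1 in each setting tried, with an interval below 1 in 5 of them and up to 0.997 with the outer 25% on each side as the edge. The fold ratio was 0.853 for −log10 q and 0.807 against isolated peaks. Chosen after seeing the data, it reversed to 1.01 against regions of 10 to 19 peaks, and without chromosome 7, which holds the 2 largest regions, it was 0.941 with a cluster share of 8.32%. The cause of these shifts was not tested beyond the construction of each setting. No replicate could be left out and no paired analysis was possible because there is 1 ChIP sample. Which values depth limits is unknown.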
